A study of Homo sapiens with 24 samples.

Results

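The genes described here are 10 human genes of double-strand break repair and signalling: H2AX, MDC1, NBN, RNF8, RNF168, RIF1, BRCA1, BRCA2, MCM9 and SLF2. They were chosen by name, with their m6A peaks in these lists already known, and make up 10 of the 9560 genes that carried a peak in any list. Every peak on their transcripts was taken from 4 deposited lists, and 56 of the 52777 listed peaks lay on them. Human U2OS osteosarcoma cells were used, either METTL3 knockout (KO) or wild type (WT). METTL3 is the enzyme that places most m6A on mRNA. In all groups the medium held 10 µM BrdU, a thymidine analogue, for 24 to 48 h beforehand. Cells were given UVC at a dose labelled 50 J, or none, and were collected after a further 2 min at 37 °C. RNA recovered with an antibody against m6A (IP) and its input were sequenced from polyadenylated RNA in 12 libraries each. There were 2 IP libraries for KO plus UV, 3 for KO minus UV, 4 for WT plus UV and 3 for WT minus UV. The sources used here do not state how the KO line was made or whether it is 1 clone.

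N6-methyladenosine (m6A) is a methyl mark on adenosines within messenger RNA, and an m6A peak is a stretch of transcript over-represented in the IP relative to input. Broken DNA ends are sensed by a complex that contains NBN, after which the kinase ATM phosphorylates the histone H2AX. MDC1 binds that mark and recruits the ubiquitin ligase RNF8, which is followed by RNF168, and the ubiquitin marks they write attract further factors. Of these, RIF1 works with 53BP1 to protect ends from trimming, whereas BRCA1 favours trimming and BRCA2 acts afterwards, in homologous recombination. MCM9 is a helicase that acts with MCM8 in recombination, and SLF2 helps bring the SMC5/6 complex to damaged chromatin.

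Each condition had 1 list for all its replicates, without scores, read counts or depth. The depth behind a peak is therefore unknown, no value has a replicate error, and no test between conditions could be made. A listed number of 0 says that no peak was called, not that the mark or the transcript was absent. The KO plus UV list held 9471 peaks on 5517 genes, KO minus UV 13852 on 6968, WT plus UV 15465 on 7974 and WT minus UV 13989 on 7136. METTL3 itself had 2 peaks in KO plus UV, 1 in KO minus UV, 2 in WT plus UV and 2 in WT minus UV, and peaks neither measure its level nor check the knockout, which rests on the labels. Of 12 osteoblast lineage markers, 6 carried a peak in some list, and SP7, ALPL, COL1A2, BGLAP, IBSP and TWIST1 carried none. Of 8 markers each, 0 blood, 3 epithelial and 2 neuronal markers carried a peak.

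The 10 genes carried 3 peaks in KO plus UV, 9 in KO minus UV, 23 in WT plus UV and 21 in WT minus UV. These lay on 1, 4, 6 and 8 of the genes in KO plus UV, KO minus UV, WT plus UV and WT minus UV. The whole lists had the same order of peak numbers with a narrower spread. None of the 10 genes had a peak in all lists, whereas 41.2% of all genes did. In KO plus UV, 9 of the 10 had no peak, against 42.3% of all genes. Since the genes were picked for such differences, nothing about the set is read from these shares. Where a gene had a peak, the median number was 2 in KO minus UV, 3.5 in WT plus UV and 2 in WT minus UV. In KO plus UV the only gene with a peak, MDC1, had 3. Over all genes with a peak the medians were 1 in KO plus UV and 2 in each of the other lists.

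**Figure D1:**
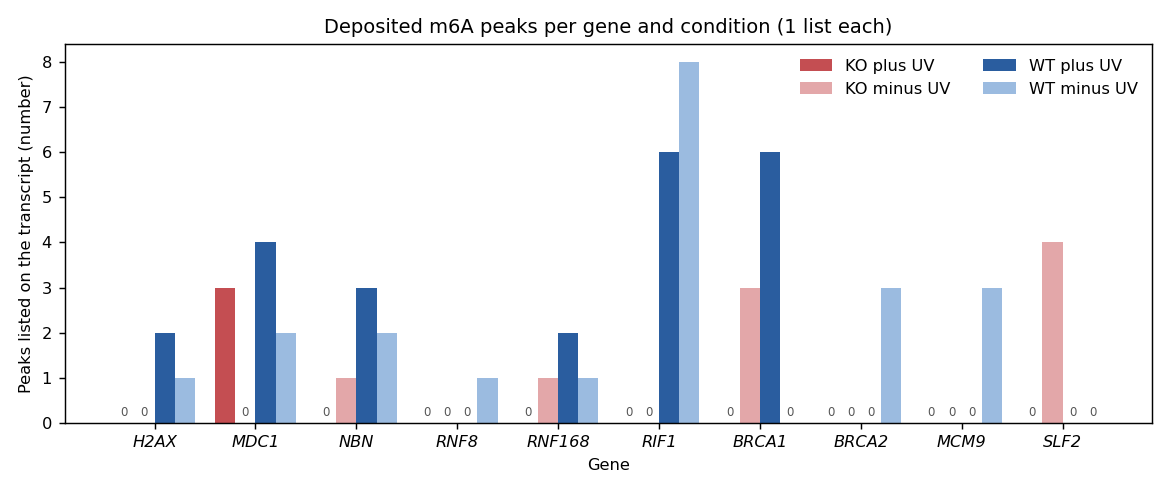
Number of listed m6A peaks (y axis) on each of the 10 genes (x axis), with 1 bar per condition and a printed 0 where the list held none. RIF1 carried 6 peaks in WT plus UV and 8 in WT minus UV and none in KO cells, BRCA1 carried 3 in KO minus UV and 6 in WT plus UV, and SLF2 carried 4 in KO minus UV alone.

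**Figure D2:**
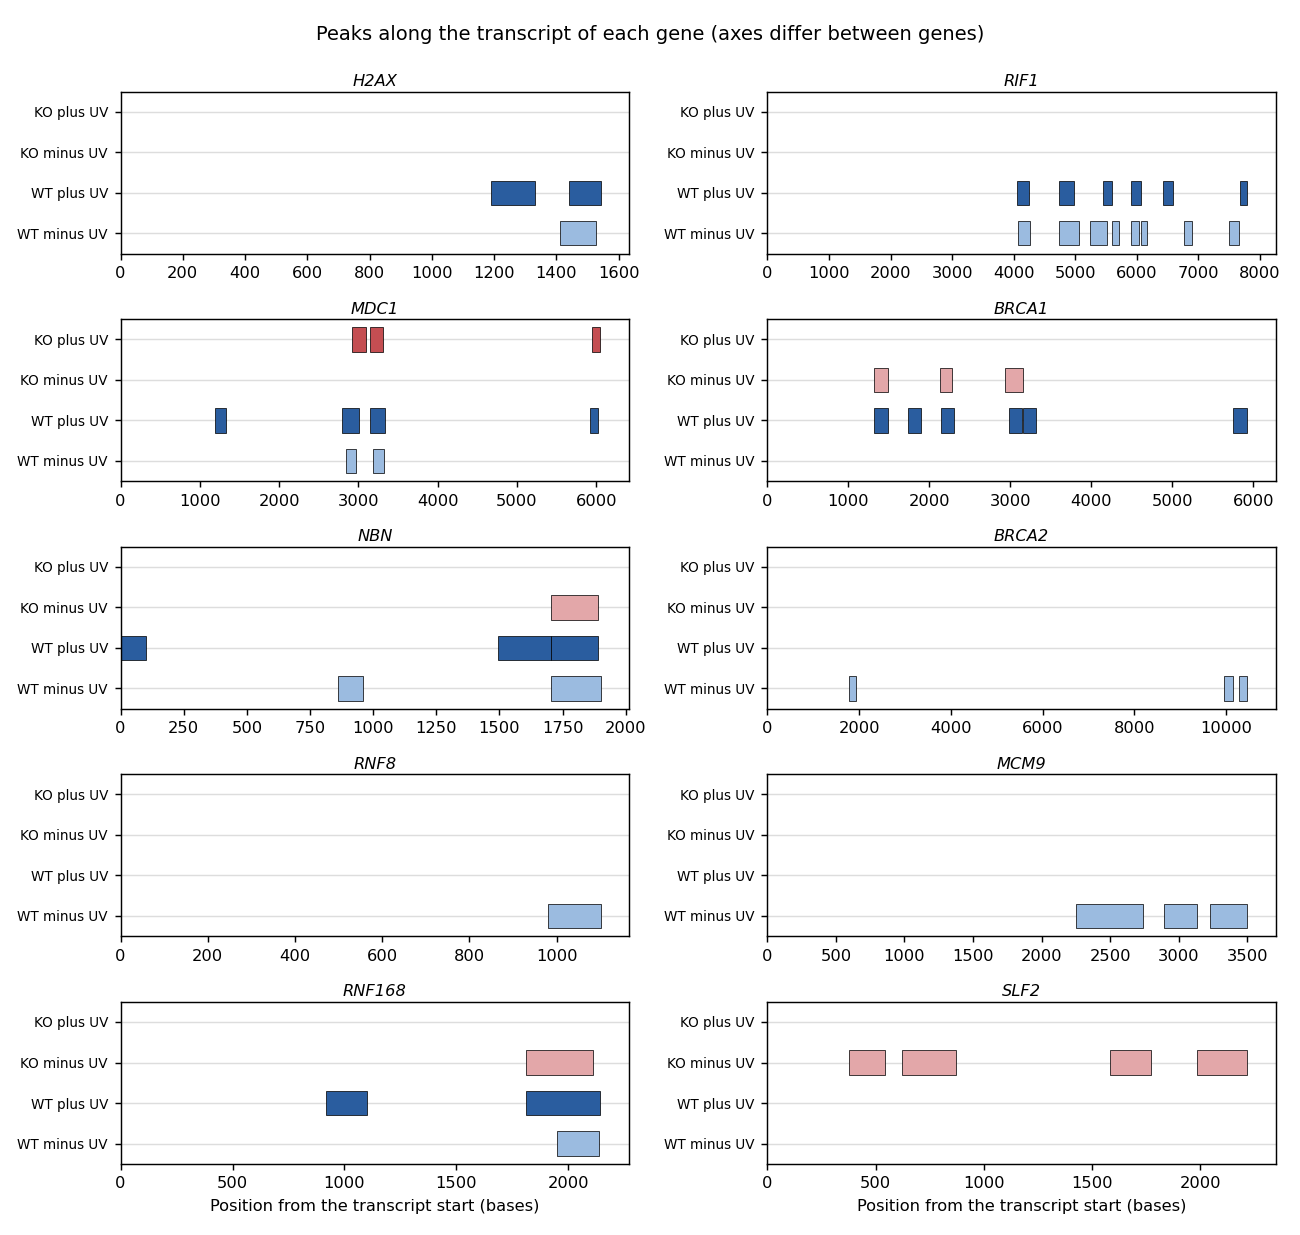
Peaks of each list (coloured boxes, to scale) along the transcript of each gene, in bases from the transcript start, with the x axis differing between genes. Shared peaks stack above each other, as at 1320 to 1488 of BRCA1, while BRCA2, MCM9, RNF8 and SLF2 have boxes in 1 row only.

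H2AX is the histone variant whose phosphorylated form, gamma-H2AX, marks break sites (chromosome 11, 119093874 to 119095465, GRCh38.p14). Its transcript carried 0 peaks in each KO list. In WT plus UV it had peaks at bases 1191 to 1330 and 1441 to 1541, against 1 peak at 1411 to 1527 in WT minus UV. The second WT plus UV peak overlapped the WT minus UV peak by 87 bases, and the first lay 80 bases upstream of it. The gene has no introns and spans 1592 bases in the RefSeq table, so all 3 peaks lay in the part toward its 3′ end. They were narrow, between 101 and 140 bases.

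MDC1, the reader of gamma-H2AX (chromosome 6, 30699807 to 30717281), was the only one of the 10 genes with a KO plus UV peak. It had 3 peaks in KO plus UV, 0 in KO minus UV, 4 in WT plus UV and 2 in WT minus UV. A pair of neighbouring regions was listed wherever the gene had peaks. The first held peaks at 2921 to 3090 in KO plus UV, 2791 to 3010 in WT plus UV and 2841 to 2970 in WT minus UV. The second held peaks at 3141 to 3310 in KO plus UV, 3141 to 3330 in WT plus UV and 3181 to 3321 in WT minus UV. A further region was found with UV in both genotypes, at 5951 to 6050 in KO plus UV and at 5921 to 6020 in WT plus UV, each 100 bases wide. The peak at 1191 to 1330 was in WT plus UV alone. All MDC1 peaks lay on a transcript numbered as the fifth copy of its accession, and the treatment of reads that match several copies was not stated.

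NBN, the break-sensing partner of MRE11 and RAD50 (chromosome 8, 89933331 to 89984667), had 0 peaks in KO plus UV, 1 in KO minus UV, 3 in WT plus UV and 2 in WT minus UV. One site recurred with almost the same edges, at 1703 to 1889 in KO minus UV, 1705 to 1889 in WT plus UV and 1704 to 1899 in WT minus UV. A second WT plus UV peak, at 1494 to 1704, abutted it with a gap of 0 bases. This peak counted as shared with the other lists by an overlap of 2 bases in KO minus UV and 1 base in WT minus UV. The remaining NBN peaks were 100 bases wide, at 1 to 100 in WT plus UV and at 861 to 960 in WT minus UV. The WT plus UV one sits at the transcript start. Within the first 100 bases began 1 of the 56 peaks on the 10 genes (1.79%), against 13% of all listed peaks.

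RNF8, the first ubiquitin ligase of the cascade (chromosome 6, 37353983 to 37394734), carried a single peak of 120 bases at 981 to 1100 in WT minus UV. The other 3 lists held 0 peaks on it. RNF168, the ligase that acts after it (chromosome 3, 196468783 to 196503768), carried 0 peaks in KO plus UV, 1 in KO minus UV, 2 in WT plus UV and 1 in WT minus UV. A wide region was shared, at 1811 to 2110 in KO minus UV, 1809 to 2142 in WT plus UV and 1951 to 2137 in WT minus UV. The WT plus UV peak was 334 bases wide and enclosed the WT minus UV peak of 187 bases. A second peak at 917 to 1100 was in WT plus UV alone, 850 bases from the nearest WT minus UV peak. RNF168 and NBN shared their presence pattern, a peak in every list but KO plus UV, with 13.5% of all genes.

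RIF1, which holds back end resection (chromosome 2, 151409902 to 151534435), had the most peaks of the 10 genes. It carried 0 in KO plus UV, 0 in KO minus UV, 6 in WT plus UV and 8 in WT minus UV. In WT minus UV only 22 of 7136 genes (0.308%) had at least as many, and in WT plus UV 128 of 7974 (1.61%). The 8 WT minus UV peaks include neighbours with gaps of 90 and 30 bases, so that number depends on counting close peaks apart. RIF1 was the only gene with at least 6 peaks in WT plus UV, at least 8 in WT minus UV and 0 in each KO list. These cutoffs are the peak numbers of RIF1 itself, so this describes the gene and is no test. H2AX and RIF1 were the 2 of the 10 with peaks in each WT list and in neither KO list, a pattern of 7.12% of all genes.

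All RIF1 peaks lay between bases 4052 and 7790 of the transcript. Peaks in both WT lists overlapped at 4 places. These were 4052 to 4249 in WT plus UV and 4072 to 4268 in WT minus UV, and then 4740 to 4981 in WT plus UV and 4738 to 5066 in WT minus UV. Farther on they were 5451 to 5600 in WT plus UV with 5242 to 5510 in WT minus UV, and 5911 to 6070 in WT plus UV with 5910 to 6040 in WT minus UV. Of the 4 WT minus UV peaks without an overlap, 2 began at the base after a WT plus UV peak ended, at 5601 to 5700 and 6071 to 6170. The peak at 7491 to 7654 lay 26 bases from a WT plus UV peak at 7681 to 7790, and the peak at 6761 to 6890 lay 178 bases from one at 6431 to 6582. With and without UV, the WT peaks of RIF1 lay within the same stretch, with 4 regions in both lists and 6 in 1 list only.

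BRCA1, which promotes resection and recombination (chromosome 17, 43044295 to 43170327), had a pattern opposite in the genotypes. It carried 0 peaks in KO plus UV against 3 in KO minus UV, and 6 in WT plus UV against 0 in WT minus UV. Peak numbers that differed with UV in opposite directions in the genotypes were found for 3 of the 10 genes, the others being RNF168 and NBN, and for 14.5% of all genes. The opposite directions were not tested, and for NBN they rest on counting 2 abutting WT plus UV peaks apart. The 3 KO minus UV peaks all overlapped WT plus UV peaks. The peak at 1320 to 1488 had identical edges in KO minus UV and WT plus UV. The next was at 2128 to 2280 in KO minus UV and 2141 to 2306 in WT plus UV, with 140 bases in common, and the third was at 2931 to 3150 in KO minus UV and 2981 to 3145 in WT plus UV. WT plus UV alone had peaks at 1731 to 1890, at 3161 to 3320, which lay 10 bases from a KO minus UV peak, and at 5751 to 5922. The last lay 2430 bases beyond the other BRCA1 peaks, which lay within bases 1320 to 3320. All 6 WT plus UV peaks were between 160 and 172 bases wide.

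Only 3 genes had at least 6 peaks in WT plus UV and 0 in WT minus UV: BRCA1, CCDC88A and RERE. Of them, BRCA1 was the only one with 0 peaks in KO plus UV and at least 3 in KO minus UV. CCDC88A and RERE are named because of these values. The cutoffs are the peak numbers of BRCA1 itself, so they describe the gene and are no test. By Euclidean distance in peak number over the 4 lists, the gene most like BRCA1 was PARP14 (distance 1). It carried 0 peaks in KO plus UV, 3 in KO minus UV, 5 in WT plus UV and 0 in WT minus UV. ICE2 and CHST6 followed at a distance of 1.41. The genes nearest to RIF1 were KAT6B, PPARGC1B and TASOR2, at a distance of 2.45, and each had 1 or 2 peaks in KO minus UV where RIF1 had 0.

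BRCA2, a mediator of homologous recombination (chromosome 13, 32315077 to 32400268), and MCM9 (chromosome 6, 118813455 to 118935159) each carried 0 peaks in KO cells, 0 in WT plus UV and 3 in WT minus UV. The BRCA2 peaks lay at 1771 to 1927, 9963 to 10153 and 10290 to 10459, so that 8035 bases separated the first from the second. The MCM9 peaks lay close together, at 2249 to 2740, 2891 to 3133 and 3231 to 3500. The first, of 492 bases, was the widest peak on any of the 10 genes, and 115 genes had one at least as wide in WT minus UV. BRCA2, MCM9 and RNF8 were the 3 of 10 genes found in WT minus UV alone, as were 4.4% of all genes. At least 3 peaks in WT minus UV and 0 elsewhere was the pattern of 31 genes, and no other of them covered as many bases as the 1005 of MCM9. These cutoffs were set at the values of BRCA2 and MCM9 themselves, as a description.

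SLF2 (chromosome 10, 100912963 to 100965134) carried 4 peaks in KO minus UV, at 379 to 540, 621 to 870, 1581 to 1770 and 1984 to 2216. It had 0 peaks in KO plus UV, WT plus UV and WT minus UV, and was the 1 gene of the 10 in KO minus UV alone, like 4.24% of all genes. At least 4 peaks in KO minus UV and 0 elsewhere were found for 5 genes, the others being TTC28, GPR158, EPHA5 and REL, named for these values. The cutoff was the peak number of SLF2 itself. SLF1, the direct partner of SLF2, differed from it, with 0 peaks in KO plus UV, 2 in KO minus UV, 2 in WT plus UV and 1 in WT minus UV.

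Irradiated and unirradiated WT cells were compared to ask which break repair transcripts differ in peaks within minutes of irradiation. Of the 9 genes with a peak in either WT list, BRCA1 had one in WT plus UV alone, and 18.9% of all genes with a peak in either list were in WT plus UV alone. BRCA2, RNF8 and MCM9 had one in WT minus UV alone, against 9.36% of all genes. RIF1, MDC1, RNF168, NBN and H2AX had peaks in both. Of the 23 peaks in WT plus UV, 13 (56.5%) lacked an overlap in WT minus UV, and over the whole list 30% did. Of the 21 peaks in WT minus UV, 12 (57.1%) lacked one in WT plus UV, against 22.4% of the whole list. With peaks of at least 150 bases alone, 7 of 12 WT minus UV peaks lacked an overlap in WT plus UV. At that width, 2 genes, BRCA1 and MDC1, were in WT plus UV alone, against 21.9% of all genes. The 10 genes were picked for differences between these lists and peaks of 1 gene are not independent, so nothing is read from their shares beside those of the whole lists. All 6 WT plus UV peaks of BRCA1 are among those without an overlap, as are the 3 WT minus UV peaks of BRCA2, the 3 of MCM9 and the 1 of RNF8. On transcripts with peaks in both lists, 7 of 17 WT plus UV peaks and 5 of 14 WT minus UV peaks had no overlap. On all transcripts with peaks in both lists the shares were 17.3% of WT plus UV peaks and 15.0% of WT minus UV peaks. Where the 10 WT plus UV peaks did overlap, their centres lay a median of 20.8 bases from the WT minus UV centre, against 9.5 bases over all overlapping peaks. There were 4 IP libraries behind WT plus UV and 3 behind WT minus UV, and the part of this in the result was not tested.

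In KO cells the same comparison involved 5 genes. MDC1 alone had a peak in KO plus UV and not in KO minus UV, while 10.6% of all genes with a peak in either KO list were in KO plus UV alone. BRCA1, RNF168, NBN and SLF2 had a peak in KO minus UV alone, against 29.2% of all genes. As no gene had peaks in both KO lists, all 3 KO plus UV peaks and all 9 KO minus UV peaks lacked an overlap. Over the whole lists, 22.6% lacked one in KO plus UV, as did 47% in KO minus UV. With MDC1 set aside for its copy-numbered transcript, none of the other 9 genes had a KO plus UV peak. That list rested on 2 IP libraries and KO minus UV on 3, and the part of this in the result was not tested.

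Unirradiated cells were compared to see which peaks differ between the line labelled METTL3 KO and WT. BRCA1 and SLF2, or 2 of the 10, had a peak in KO minus UV and not in WT minus UV, against 16.4% of all genes with a peak in either. BRCA2, RIF1, MDC1, RNF8, H2AX and MCM9, or 6 of the 10, had a peak in WT minus UV and not in KO minus UV, against 18.4% of all genes. With peaks of at least 150 bases alone, 3 of the genes did, against 20.5% of all genes at that width. RNF168 and NBN had peaks in both lists. Of the 9 KO minus UV peaks, 7 had no overlap in WT minus UV, and of the 21 WT minus UV peaks, 19 had none in KO minus UV. The whole-list shares were 31.1% of KO minus UV peaks and 32.1% of WT minus UV peaks. With peaks of at least 150 bases alone, 10 of 12 WT minus UV peaks on the 10 genes had no overlap in KO minus UV. Both lists came from 3 IP libraries.

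With UV, none of the 10 genes had a peak in KO plus UV and not in WT plus UV, where 6.38% of all genes with a peak in either did. BRCA1, RIF1, RNF168, NBN and H2AX had a peak in WT plus UV and not in KO plus UV, against 35.2% of all genes. All 3 KO plus UV peaks, on MDC1, overlapped a WT plus UV peak, and 19.3% of the whole KO plus UV list did not. An overlap in KO plus UV was missing for 20 of the 23 peaks in WT plus UV, against 51% of that whole list. KO plus UV rested on 2 IP libraries and WT plus UV on 4, and the part of this in the result was not tested. These comparisons share lists with those above and are not independent of them.

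**Figure D3:**
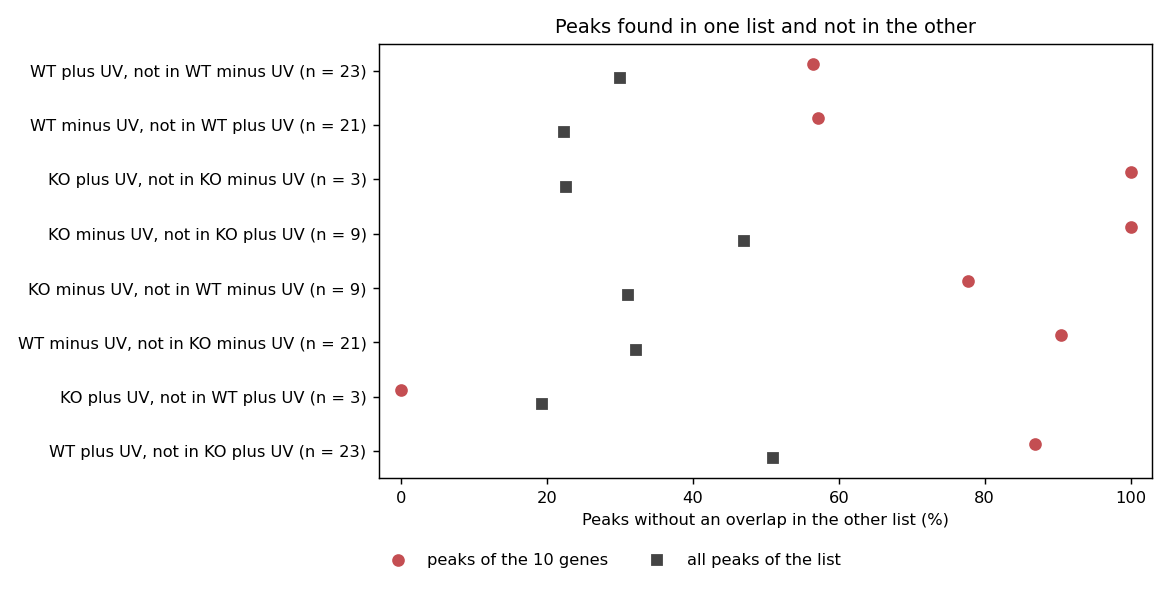
Share of peaks (x axis, %) without an overlap in the other list of a pair, for the peaks on the 10 genes (circles) and for all peaks of the same list (squares), with the number of peaks on the 10 genes in brackets. The genes were picked for differences between these lists, so the circles are a description, and they lie to the right of the squares except for KO plus UV not in WT plus UV, where all 3 peaks of MDC1 overlapped.

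Merged across the lists, the 56 peaks formed 38 regions, of which 25 were found in 1 list, 9 in 2 lists, 4 in 3 lists and 0 in 4. Over all transcripts, 31.6% of 20811 regions were found in 1 list and 25.7% in all 4. The 4 regions in 3 lists were the pair on MDC1 and 1 each on NBN and RNF168. WT minus UV alone held 12 regions and WT plus UV alone 9, with 4 in KO minus UV alone and 0 in KO plus UV alone. A further 5 regions were shared by the WT lists only, 4 of them on RIF1 and 1 on H2AX.

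Peaks on the 10 genes had a lower median width than the whole list in each condition except KO minus UV. The median was 170 bases in KO plus UV, 190 in KO minus UV, 165 in WT plus UV and 164 in WT minus UV. For the whole lists it was 176 bases in KO plus UV, 182 in KO minus UV, 189 in WT plus UV and 186 in WT minus UV. Of the 56 peaks, 6 had the minimum width of 100 bases (10.7%, against 6.43% of all peaks). They lay on MDC1, NBN and RIF1. The widest were on MCM9 in WT minus UV, on RNF168 in WT plus UV and on RIF1 in WT minus UV.

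**Figure D4:**
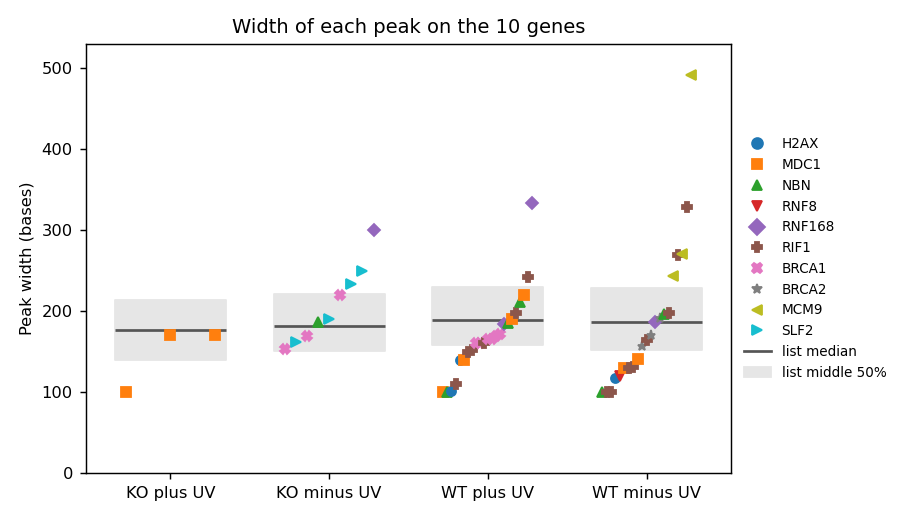
Width in bases (y axis) of each peak on the 10 genes by list (x axis), 1 symbol per peak, with the median (line) and middle 50% (grey band) of the whole list. All 9 peaks in KO minus UV lie between 153 and 300 bases, and the MCM9 peak of 492 bases in WT minus UV stands above the rest.

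Beyond the 10 genes, 8 lists of break repair genes that include them were counted, which together held 133 genes, 102 of them with a peak in any list. Of these 102, 55 had a peak in KO plus UV, 72 in KO minus UV, 84 in WT plus UV and 72 in WT minus UV. As shares, these were 53.9% in KO plus UV, 70.6% in KO minus UV, 82.4% in WT plus UV and 70.6% in WT minus UV. Over all genes the shares were 57.7% in KO plus UV, 72.9% in KO minus UV, 83.4% in WT plus UV and 74.6% in WT minus UV. Without the 10 genes, 92 were left, of which 54 had a peak in KO plus UV, 68 in KO minus UV, 78 in WT plus UV and 64 in WT minus UV. In WT cells, 20 of 84 of these other repair genes (23.8%, against 18.9% of all genes) had a peak in WT plus UV alone, while 6 (7.14%, against 9.36%) had one in WT minus UV alone. In KO cells, 8 of 76 (10.5%, against 10.6%) had a peak in KO plus UV alone, while 22 (28.9%, against 29.2%) had one in KO minus UV alone. Without UV, 16 of 80 (20.0%, against 16.4%) had a peak in KO alone and 12 (15.0%, against 18.4%) in WT alone. With UV, 5 of 83 (6.02%, against 6.38%) had one in KO alone and 29 (34.9%, against 35.2%) in WT alone. With the 10 genes included, the count in WT minus UV alone was 9 of 93 (9.68%) beside WT plus UV and 18 of 90 (20.0%) beside KO minus UV. Beside KO plus UV, it was 34 of 89 (38.2%) in WT plus UV alone and 26 of 81 (32.1%) in KO minus UV alone.

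**Figure D5:**
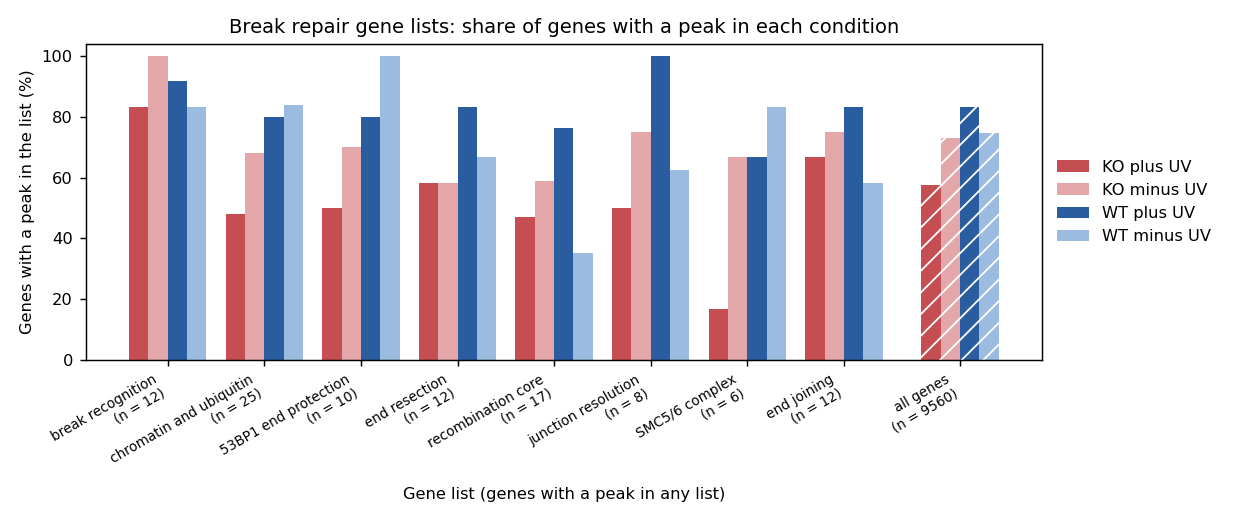
Share of genes (y axis, %) with a peak in each condition for 8 break repair gene lists and for all genes (hatched), out of the genes with a peak in any list (n under each group). The recombination core had a peak for 8 of 17 genes in KO plus UV, 10 in KO minus UV, 13 in WT plus UV and 6 in WT minus UV.

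Among break recognition genes, a list of sensors, kinases and related factors, peaks were present under most conditions. Counts here and below are out of the genes with a peak in any condition. Over all such genes the shares were 57.7% in KO plus UV, 72.9% in KO minus UV, 83.4% in WT plus UV and 74.6% in WT minus UV. Of 12 break recognition genes with a peak, 10 had one in KO plus UV, 12 in KO minus UV, 11 in WT plus UV and 10 in WT minus UV. RAD50, the remaining gene of that list, had no peak. PRKDC, the catalytic subunit of the kinase DNA-PK, carried 4 peaks in KO plus UV and 5 in each other list. ATM, the kinase that phosphorylates H2AX, had 1 peak in KO plus UV, 1 in KO minus UV, 0 in WT plus UV and 1 in WT minus UV. TTI1 and TTI2, which help such kinases to mature, were both absent from WT minus UV. TTI1 carried 2 peaks in KO plus UV, 4 in KO minus UV, 3 in WT plus UV and 0 in WT minus UV.

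Chromatin and ubiquitin signalling genes with a peak numbered 12 of 25 in KO plus UV, 17 in KO minus UV, 20 in WT plus UV and 21 in WT minus UV. TP53BP1, which encodes 53BP1, had 3 peaks in KO plus UV, 4 in KO minus UV, 3 in WT plus UV and 3 in WT minus UV. BARD1, the obligate partner of BRCA1, followed a pattern unlike that of BRCA1, with 0 peaks in KO plus UV, 4 in KO minus UV, 2 in WT plus UV and 3 in WT minus UV. RNF169, a paralogue of RNF168, had 0 peaks in KO plus UV and 4 in each other list. UBE2N, the ubiquitin-conjugating enzyme that works with RNF8, had 1 peak in KO plus UV and 1 in WT minus UV, each of 100 bases.

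In the 53BP1 end protection list, 10 of 13 genes had a peak in any list. Of those with a peak, 5 had one in KO plus UV, 7 in KO minus UV, 8 in WT plus UV and 10 in WT minus UV. SHLD2, a shieldin subunit that acts downstream of RIF1, carried 0 peaks in KO plus UV, 3 in KO minus UV, 2 in WT plus UV and 3 in WT minus UV. STN1, a subunit of the CST complex, shared the presence pattern of RIF1, with 1 peak of 100 bases in each WT list and none in KO cells. Of 12 end resection genes, 7 had a peak in KO plus UV, 7 in KO minus UV, 10 in WT plus UV and 8 in WT minus UV. EXO1, a resection nuclease, carried 2 peaks in KO plus UV, 0 in KO minus UV, 3 in WT plus UV and 1 in WT minus UV.

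The recombination core is a list chosen, and described here at more length, with these results known. Of its 29 genes, 12 had no peak in any list. Of its 17 genes with a peak in any list, 8 had one in KO plus UV, 10 in KO minus UV, 13 in WT plus UV and 6 in WT minus UV. Of the 15 with a WT peak, 9 (60.0%) had one with UV alone, where 18.9% of all genes did. In 2, BRCA2 and MCM9 from the 10 genes, a peak was listed without UV alone, where 9.36% of all genes had one. With peaks of at least 150 bases alone, 6 core genes had one with UV alone, where 21.9% of all genes did. Each of the 9 rested on 1 WT plus UV peak, except HELQ, a helicase, with 2. PALB2, the bridge between BRCA1 and BRCA2, was among them and had 0 peaks in KO plus UV, 0 in KO minus UV, 1 in WT plus UV and 0 in WT minus UV. A KO peak was listed for 7 of the 9, PALB2 and XRCC2 being without one. Without UV, 7 of 13 core genes (53.8%) had a peak in KO alone, where 16.4% of all genes did, and 3 had one in WT alone, where 18.4% did. This comparison shares the WT minus UV list with the one above, and 5 of the 9 genes named there are among these 7. At the 150-base width, 5 core genes had a peak in KO alone, where 18.4% of all genes did, and 4 in WT alone, where 20.5% did. MCM8, the partner of MCM9, did not share its pattern, with 1 peak in KO plus UV, 1 in KO minus UV, 3 in WT plus UV and 3 in WT minus UV. HROB, which recruits the MCM8 and MCM9 helicase, had 1 peak in KO plus UV, 2 in KO minus UV, 1 in WT plus UV and 0 in WT minus UV.

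Of 8 junction resolution genes, 4 had a peak in KO plus UV, 6 in KO minus UV, 8 in WT plus UV and 5 in WT minus UV. SLX4, a scaffold of structure-specific nucleases, carried 1 peak in KO plus UV, 3 in KO minus UV, 6 in WT plus UV and 2 in WT minus UV. Of 6 genes of the SMC5/6 complex and its loaders, 1 had a peak in KO plus UV, 4 in KO minus UV, 4 in WT plus UV and 5 in WT minus UV. The subunit NSMCE3 had 1 peak in each list, and SMC5 had 1 in each WT list and none in KO cells. Of 12 end joining genes, 8 had a peak in KO plus UV, 9 in KO minus UV, 10 in WT plus UV and 7 in WT minus UV. LIG4, the ligase of canonical end joining, had 0 peaks in KO plus UV, 0 in KO minus UV, 1 in WT plus UV and 2 in WT minus UV.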

How the data were processed

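Reads were aligned with TopHat2 2.0.14 and build hg38 was used, per the submitters' processing notes. How peaks were called, at what threshold, and how replicates and inputs were combined are steps not given in the sources used here. Each line of the deposited lists gives a RefSeq transcript and a peak's first and last base on it (unit other), read from the values as 1-based with both ends included. Name and score fields are empty.

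Accessions were matched without version or copy number to a RefSeq gene table (GRCh38.p14), which matched 9563 of 9674 transcripts. Exon and coding boundaries and transcript sequences were not used here, so peaks are given by transcript position alone. Peaks overlapping by at least 1 base on a transcript were called shared. Overlap code (Python 3.11.15, pandas 2.3.3) was tested on simulated data. The simulation removed peaks from a copy of the WT plus UV list and shifted the rest by a few bases. Larger differences in peak edges were not covered. Genes and lists were chosen with earlier results of these data known. Beyond the 10 genes, for each repair list, at most 3 genes per direction of a comparison, plus at most 2 found in all 4 lists, were eligible to be named by total peak length. For genes with at least 5 peaks, the 3 nearest in peak number were named too. Alternatives covered the overlap rule, a minimum width, merging of nearby peaks, bases covered and copy-numbered transcripts. Results for some genes are not reported here.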

Additional observations from a re-analysis of the deposited data

Results flagged for a closer look

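For 3 of the 10 genes the peak number moved in opposite directions with UV in KO and WT cells, which was not tested, since each condition had 1 list. For BRCA1 the UV difference was -3 peaks in KO cells and 6 in WT cells. For RNF168 it was -1 in KO cells and 1 in WT cells, and for NBN -1 in KO cells and 1 in WT cells. The WT plus UV number of NBN counts 2 abutting peaks apart, and its difference in WT cells rests on that. Opposite movement was found for 14.5% of all genes with a peak. KO plus UV rested on 2 IP libraries, KO minus UV on 3, WT plus UV on 4 and WT minus UV on 3.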

How the results depend on the processing

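Of 105 recomputed values, 99 stayed within 1.5 times the reported count or within its interval, which treats peaks as independent. Some could not move: merging nearby peaks leaves the genes with a peak unchanged, and of the 10 genes only MDC1 is on a copy-numbered transcript. Values counted as staying could still differ. Regions in a single list went from 25 to 17 with peaks within 100 bases merged. With peaks of at least 150 bases only, the genes in WT plus UV but absent from WT minus UV became 2 (BRCA1 and MDC1), and those in WT minus UV and not in KO minus UV became 3. Of WT minus UV peaks, 12 were kept at that width, and those without an overlap became 7 for WT plus UV and 10 for KO minus UV. Without copy-numbered transcripts, the genes and the peaks in KO plus UV and not in KO minus UV became 0 each. MDC1 joined the genes in WT plus UV alone because its WT minus UV peaks, of 130 and 141 bases, were narrower than 150 bases. Leaving out the KO plus UV list and limiting the recombination core to wide peaks were chosen after seeing the data. No paired analysis was possible because each condition has 1 list for all its replicates. Without depth, an unlisted peak may be a missed one.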
